A study of Homo sapiens with 4 samples.

Results

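The 8 genes described here are repressors and markers of the epithelial to mesenchymal transition (EMT). The repressors of transcription are ZEB1, ZEB2, SNAI1, SNAI2 and TWIST1, and the markers are the cadherins CDH1 and CDH2 and the intermediate filament gene VIM. All 8 were taken as every probe set of the array whose gene symbol is one of these 8. That gave 18 probe sets of 54613, and 8 genes of 19775; 0 of the 18 were shared with another gene. RNA came from HCCLM3, a human hepatocellular carcinoma cell line, sorted magnetically by the surface protein EpCAM and treated for 4 days. EpCAM-negative cells were transfected with a lipid reagent and 100 nM of mimic, a duplex standing in for the mature microRNA, either of miR-429 or of a negative control (NC). The EpCAM-positive cells were given 40 µM of a cholesterol-conjugated antagomir against miR-429, an antisense RNA that blocks it, or 40 µM of an NC antagomir. Each of the 4 groups was measured on 1 array, so no difference below has a replicate check and no p-value is given. EpCAM fraction, delivery method and the array itself cannot be told apart between the control groups.

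In EMT, epithelial cells loosen their cell to cell contacts and take on migratory features. ZEB and Snail proteins bind E-box sequences at epithelial genes, E-cadherin (CDH1) above all, and recruit corepressors, while N-cadherin (CDH2) and vimentin (VIM) mark the mesenchymal side. The miR-200 family, to which miR-429 belongs, pairs with the messenger RNAs of ZEB1 and ZEB2, and ZEB proteins in turn repress the miR-200 genes. A fall of ZEB1 or ZEB2 with the mimic and a gain with the antagomir is therefore the textbook direction.

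The agent supplied and blocked in this study is shown first, beside its family, to show which members carry its seed, the bases by which a microRNA mainly pairs with its targets. The mature sequences are from RefSeq on GRCh38.p14, 5′ to 3′, and the capitals mark the seed, bases 2 to 8. miR-429 lies at chr1:1169055-1169076 on the plus strand, in the same cluster as miR-200b and miR-200a.
hsa-miR-429: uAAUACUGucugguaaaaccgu
hsa-miR-200b-3p: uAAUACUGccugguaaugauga
hsa-miR-200c-3p: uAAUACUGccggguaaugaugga
hsa-miR-200a-3p: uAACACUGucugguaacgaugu
hsa-miR-141-3p: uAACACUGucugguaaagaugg
The first 3 share 1 seed and the last 2 share another, which differs from that of miR-429 by U4C, counted from the 5′ end of the microRNA.

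Signals are MAS5 signals, a background-corrected brightness per probe set, and a level is compared only within a probe set. The median over all non-control values of the 4 arrays, a signal of 64.8 or 6.02 on the log2 scale, served as the floor. A probe set passed the filter when its mean log2 signal over the 4 arrays reached the floor. Of the 18 probe sets 6 passed, from 5 genes: both probe sets of CDH2 and 1 each of ZEB1, SNAI1, SNAI2 and VIM. All 5 probe sets of ZEB2, the single one of TWIST1 and both of CDH1 lay under the filter, as did the other 3 of ZEB1 and the other 1 of VIM. Among the 12 that did not pass, 10 were under the floor on all 4 arrays, with signals of the 12 up to 75.9. Such dim values scatter widely: of all probe sets under the filter, 53.5% differed by 2-fold or more with the mimic, 55.0% with the antagomir and 55.6% between the control arrays.

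**Figure D1:**
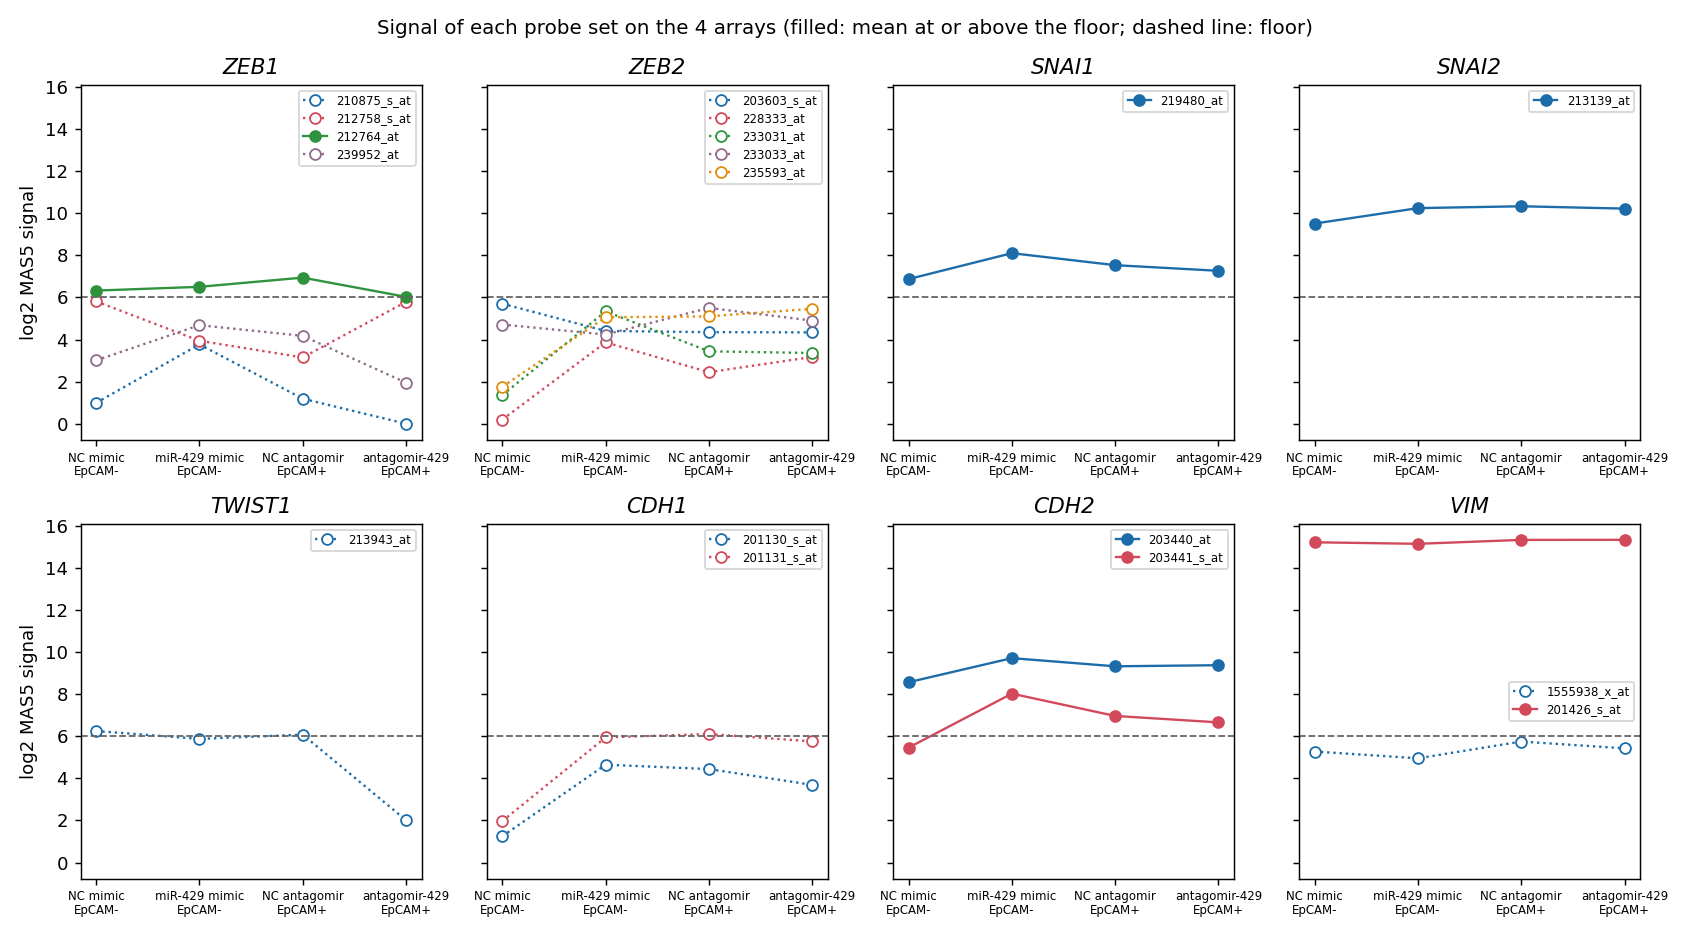
Log2 MAS5 signal (y axis) of each of the 18 probe sets on the 4 arrays (x axis), 1 panel per gene; filled points and solid lines are probe sets whose mean reaches the floor (dashed line, 6.02), open points those under it. VIM runs flat at the top, SNAI1, SNAI2 and CDH2 are lowest on the NC mimic array, and ZEB2 stays under the floor on every array.

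The repressors ZEB1 and ZEB2 were dim throughout. The only ZEB1 probe set that passed, 212764_at, had signals of 80.1 with the NC mimic, 90.7 with the miR-429 mimic, 123 with the NC antagomir and 65.2 with antagomir-429. It was thus highest in the EpCAM-positive control and lowest after the antagomir, at the floor. The log2 ratio was 0.18 with the mimic, -0.91 with the antagomir and 0.62 between the control arrays (NC antagomir over NC mimic). Of probe sets of like signal, 19.9%, 13.6% and 15.1% were past 2-fold in these comparisons. Their robust SD of the log2 ratio was 0.74, 0.65 and 0.70, so only the antagomir value was larger than that scatter. ZEB1 was therefore not lower with the mimic nor higher with the antagomir by this probe set. Another ZEB1 probe set, 212758_s_at, had the textbook direction in both, with signals of 56.2 and 15.4 for the NC and miR-429 mimics and 8.88 and 55.4 for the NC antagomir and antagomir-429. All 4 of those values were under the floor, and its log2 ratios of -1.87 and 2.64 stand beside a scatter of 2.29 and 2.64 at that signal. The remaining ZEB1 probe sets, 210875_s_at and 239952_at, went the other way, at 2.78 and 1.67 with the mimic and -1.19 and -2.22 with the antagomir, also under the floor.

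ZEB2, the close relative of ZEB1, stayed under the floor on all 4 arrays with each of its 5 probe sets. The brightest, 233033_at, had signals of 26.2, 18.8, 45.3 and 29.8 in the order NC mimic, miR-429 mimic, NC antagomir and antagomir-429. In 3 of the 5, 228333_at, 233031_at and 235593_at, the NC mimic array was far the lowest, with signals of 1.15, 2.57 and 3.39 against 5.46 to 44.0 on the other arrays. In 203603_s_at the same array was the highest, at 52.0 against 20.2 to 21.2. The probe sets of this gene therefore disagreed in direction, and no fold is given where both arrays are under the floor.

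The Snail repressors were measured by 1 probe set each, and both were well above the floor. SNAI2, or Slug, had signals of 729 with the NC mimic, 1211 with the miR-429 mimic, 1287 with the NC antagomir and 1191 with antagomir-429. The NC mimic array stood alone at the low end, and the other 3 lay within 0.11 log2 units of each other. With the mimic SNAI2 was 1.66-fold higher, a log2 ratio of 0.73 against a scatter of 0.44, and with the antagomir it was at -0.11 against a scatter of 0.25. Between the control arrays it was 0.82, 1.77-fold higher in EpCAM-positive cells, against a scatter of 0.34.

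SNAI1, or Snail, had signals of 117 with the NC mimic, 275 with the miR-429 mimic, 185 with the NC antagomir and 154 with antagomir-429. It was highest with the mimic and lowest in that mimic's own control. The log2 ratio was 1.23 with the mimic, or 2.35-fold, against a scatter of 0.55 at this signal, and 7.73% of probe sets of like signal were past 2-fold. With the antagomir it was -0.27 against a scatter of 0.54, and between the control arrays 0.66 against 0.59.

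TWIST1, a helix-loop-helix repressor, gave signals of 75.9, 58.5, 67.3 and 4.02 in the same order of arrays. The first 3 lay close to the floor and antagomir-429 was far under it. The measured log2 ratio with the antagomir was -4.06, at a signal where the scatter was 2.82 and 70.7% of probe sets were past 2-fold. Taken against the floor, TWIST1 was at least 1.04-fold lower there, which is no more than a bound. With the mimic it was at -0.37 and between the controls at -0.17.

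E-cadherin, the adhesion receptor of epithelial junctions and the classical target of these repressors, was barely detected. CDH1 probe set 201131_s_at had signals of 3.91 with the NC mimic, 61.5 with the miR-429 mimic, 68.7 with the NC antagomir and 53.9 with antagomir-429. Only the NC antagomir array reached the floor, while a lower floor of 52.9, the median of the probe sets' mean signals, would count 3 of the 4 arrays. The second CDH1 probe set, 201130_s_at, had the same shape under the floor, with 2.37, 25.04, 21.7 and 12.9. In both, the NC mimic array was the low one and the other 3 lay together. The measured log2 ratios were 3.97 and 3.40 with the mimic and 4.13 and 3.19 between the controls, at signals where the scatter was 1.92 to 2.78. Between 58.6% and 70.0% of probe sets of such signals were past 2-fold. With the antagomir CDH1 was at -0.35 and -0.75, both smaller than the scatter.

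N-cadherin, the cadherin gained in many mesenchymal cells, had 2 probe sets that passed. CDH2 probe set 203440_at had signals of 378 with the NC mimic, 835 with the miR-429 mimic, 639 with the NC antagomir and 662 with antagomir-429. The NC mimic was again lowest and the miR-429 mimic highest. Its log2 ratio was 1.14 with the mimic, or 2.21-fold, against a scatter of 0.47, and 3.48% of probe sets of like signal were past 2-fold. The second probe set, 203441_s_at, had 43.8, 260, 125 and 101 in the same order. With the mimic it was at least 4.01-fold higher against the floor, with a measured log2 ratio of 2.57 and a scatter of 0.69. Of probe sets of like signal, 16.6% were past 2-fold there. The antagomir gave 0.05 and -0.31 by the 2 probe sets, both within the scatter. Between the controls CDH2 was higher in EpCAM-positive cells, at 0.76 against a scatter of 0.38, and by the second probe set at least 1.92-fold.

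Vimentin, the intermediate filament of mesenchymal cells, was bright and flat. VIM probe set 201426_s_at had signals of 37889, 36016, 40963 and 41079, a range of 0.19 log2 units over the 4 arrays. Its log2 ratios were -0.07 with the mimic, 0.00 with the antagomir and 0.11 between the controls, all smaller than the scatter of 0.12 to 0.32. Under quantile normalization the mimic ratio was 0.20, on the other side of 0. The dim probe set 1555938_x_at stayed under the floor on all arrays, at 30.9 to 53.6.

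By gene and brightest probe set, SNAI1 and CDH2, 2 of the 5 that passed, stood 2-fold or more above their control in mimic-treated cells, and 0 stood below it. Of the 12395 genes that passed in all, 4.37% were that much higher and 3.05% that much lower. By probe set, 3 of the 6 that passed were higher against 5.78% of all passing probe sets, and their median log2 ratio was 0.94 against 0.03. With the antagomir 0 of the 5 genes were past 2-fold, where 2.8% of expressed genes were higher and 2.62% lower, and the median of the 6 probe sets was -0.19 against 0.01. Between the control arrays 0 of the 5 genes were past 2-fold, where 2.86% were higher and 3.82% lower. All 6 probe sets were on the higher side in EpCAM-positive cells there, where 49.0% of all passing probe sets were. Their median was 0.71 against -0.01. The ZEB1 value of 0.62 and the VIM value of 0.11 were smaller than the scatter at their signals, 0.70 and 0.21. With only 5 genes, these counts describe the members and nothing wider.

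**Figure D2:**
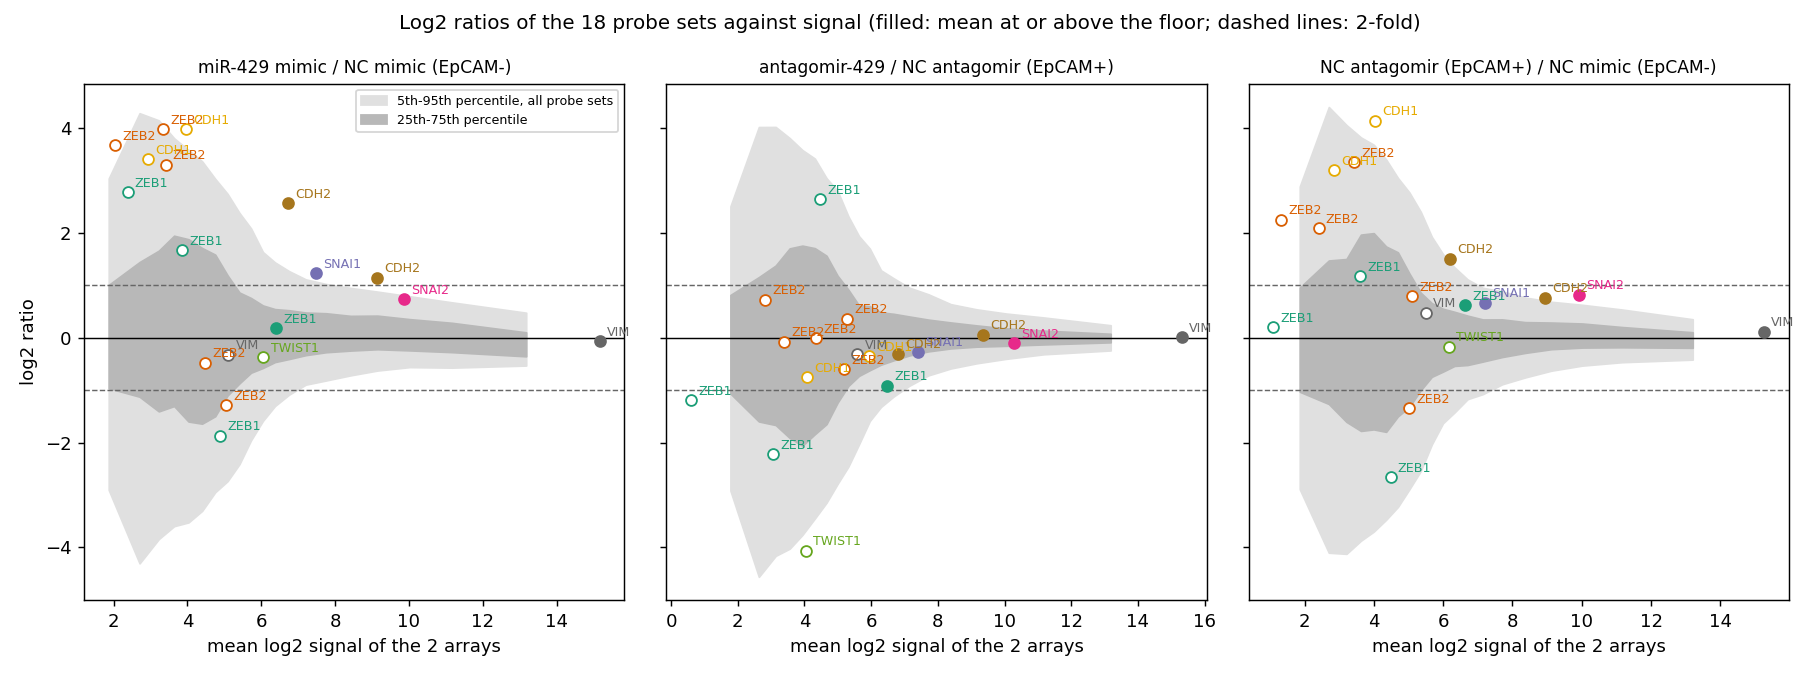
Log2 ratio (y axis) of the 18 probe sets against the mean log2 signal of the 2 arrays compared (x axis), 1 panel per comparison; grey bands hold the middle 90% and 50% of all probe sets in 20 signal bins. With the mimic, CDH2 (1.14 and 2.57), SNAI1 (1.23) and SNAI2 (0.73) are the filled points above the dark band, while the antagomir panel has its filled points near 0 apart from ZEB1 (-0.91).

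The mimic and antagomir ratios share no array. Of the 6 passing probe sets, 4 were above 0 with the mimic and below 0 with the antagomir, where 23.6% of all passing probe sets were so. They were ZEB1 212764_at, SNAI1, SNAI2 and CDH2 203441_s_at. VIM was the 1 with the opposite pair of signs, at -0.07 and 0.00, and CDH2 203440_at was above 0 in both, its antagomir value turning to -0.01 when arrays were centred on their medians. Of these, only the ZEB1 antagomir value and the SNAI1, SNAI2 and CDH2 mimic values were larger than the scatter at their signal.

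The low values of CDH1, CDH2, SNAI1 and SNAI2 fell on the same array. The NC mimic array was the lowest of the 4 for 9 of the 18 probe sets, compared with 26.6% of all non-control probe sets. The 9 came from these genes and ZEB2, and those of ZEB2 and CDH1 were under the filter, where values scatter widely. The NC mimic array was lowest for 29.1% of all passing probe sets and 24.6% of those under the filter. Both the mimic and the control comparison use that array as the denominator, so they are not independent. Against the NC antagomir array in its place, which is of the other EpCAM fraction and delivery, the miR-429 mimic gave log2 ratios of 0.57 for SNAI1, -0.09 for SNAI2, 0.39 and 1.06 for the 2 CDH2 probe sets, -0.44 for ZEB1 and -0.19 for VIM. SNAI1 and CDH2 by its brighter probe set were then under 2-fold, and SNAI2 was on the other side of 0. In CDH1 201131_s_at the signals compared were 61.5 and 68.7, with a log2 ratio of -0.16.

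The NC mimic and miR-429 mimic arrays also differed in technical readouts. The mean log2 signal of the poly-A spike-in controls was 11.14 and 10.41 on them, with 10.77 and 10.70 on the antagomir pair. That of the hybridisation controls was 12.96 and 12.59, with 12.78 and 12.82 on the antagomir pair. The 3′ to 5′ signal ratio of the actin control was 3.41 and 2.63, with 3.12 and 3.07 on the antagomir pair, and that of GAPDH was 0.92 on both. The ratio with the mimic followed the span of the gene, its median being -0.20 among the shortest genes and 0.21 among the longest when expressed genes were split into 5 equal groups. CDH2, with a span of 244 kb, lies in the longest group, and after subtracting that group's median its mimic ratio was 0.93, under 2-fold, by the brighter probe set and 2.35 by the second. ZEB1, ZEB2 and CDH1 are in that group too. SNAI1 and SNAI2, with spans of 5.91 and 3.83 kb, lie in the shortest, and their mimic ratios became 1.43 and 0.93. The part of RNA quality in these values was not tested beyond this.

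Cell identity was checked by markers. EPCAM, the sorting marker, had signals of 1106 in the NC mimic sample and 1235 in the NC antagomir sample (log2 ratio 0.16), so its RNA differed little between the sorted fractions. KRT8 and KRT18, keratins of simple epithelia, were bright on all arrays, KRT8 between 28365 and 33449, but KRT19, another of them, was under the floor on all 4, at 12.4, 12.2, 6.01 and 4.33. The liver marker ALB was also under the floor throughout. AFP, at 91.5 to 119, and APOA1, at 66.2 to 91.7, were near the floor but above it on every array. TTR reached 174 on the NC antagomir array and FOXA2 110 on the antagomir-429 array, each under the floor elsewhere. In the order NC mimic, miR-429 mimic, NC antagomir and antagomir-429, 5, 5, 6 and 6 of these 9 epithelial and liver markers were at or above the floor. The summed signal of 9 fibroblast and stellate cell markers was 8347 with the NC mimic and 8474 with the miR-429 mimic. It was 11673 and 8658 on the NC antagomir and antagomir-429 arrays, and COL1A1 made up most of it. In the same order of arrays, 6, 7, 6 and 7 of the 9 were at or above the floor. COL1A1, COL3A1, DCN, PDGFRB, THY1 and ACTA2 were above it on every array. PTPRC, the pan-leukocyte marker, was under the floor on all arrays, as were CD14, LYZ and TYROBP. CD3E, CD3D, ITGAM and CSF1R were above it on some arrays, at up to 136, 110, 113 and 103. MS4A1 reached 82.0 with the miR-429 mimic. The summed leukocyte signal over 9 genes was 374 and 605 in the mimic pair, and 584 and 437 on the NC antagomir and antagomir-429 arrays. In that order, 1, 5, 4 and 2 of the 9 were at or above the floor. The summed signal of 7 endothelial markers was 552 and 803 in the mimic pair and 726 and 763 on the other arrays, with 2, 3, 3 and 3 of the 7 at or above the floor. PECAM1, at 126 to 234, and ESAM, at 284 to 418, were above it on every array, VWF reached 126 and CDH5 at most 73.3. No marker of the 4 lists was listed at 0, and the part of other cells in the members' values was not tested.

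Genes that act with these repressors were read from 9 lists, whose counts past 2-fold stand against the shares of all expressed genes given above: 4.37% higher and 3.05% lower with the mimic, 2.8% and 2.62% with the antagomir, and 2.86% and 3.82% between the controls. For the corepressors of ZEB and Snail proteins, all 15 were expressed, and with the mimic 1 was past 2-fold above its control and 0 below, with a median log2 ratio of 0.08 where the median of all expressed genes was 0.00; with the EpCAM-positive control the list's median was -0.04. The one was RCOR1, or CoREST, a scaffold that ties the demethylase KDM1A to histone deacetylases, with signals of 626, 1487, 984 and 1063. Like CDH2 it was lowest on the NC mimic array, and with the EpCAM-positive control its mimic ratio was 0.60, under 2-fold. CTBP1, a corepressor bound by ZEB proteins, was at 10322 with the NC mimic and 8304 with the miR-429 mimic, a log2 ratio of -0.31. Its paralog CTBP2 went the other way, from 3515 to 4403, a log2 ratio of 0.32. Both were smaller than the scatter at their signals, 0.32 for CTBP1 and 0.41 for CTBP2. With the antagomir and between the controls, 0 of the 15 were past 2-fold.

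Among genes of Snail and Twist turnover, 13 of 15 were expressed, and 2 were higher and 1 lower with the mimic (median 0.25), where 4.37% and 3.05% of all expressed genes were so. The median was 0.44 when each gene was the median over its probe sets. BTRC, the F-box protein that marks phosphorylated Snail for degradation, had signals of 91.5 and 210 with the NC and miR-429 mimics. PRKD1, a kinase of Snail, had 148 and 340. COPS2, a subunit of the COP9 signalosome, was lower, at 1917 and 902, and was also lower in the control comparison, at 882 in EpCAM-positive cells. As the median over its 2 passing probe sets, COPS2 was at -1.09 with the mimic and at -0.73, under 2-fold, between the controls. With the EpCAM-positive control all 3 were under 2-fold, with mimic ratios of 0.49 for BTRC, 0.71 for PRKD1 and 0.03 for COPS2. With the antagomir 0 of the 13 were past 2-fold.

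The other EMT transcription factors had 7 of 16 expressed and 0 past 2-fold in any comparison, with a median of 0.60 with the mimic, which was 0.25 with the EpCAM-positive control. With the mimic 5 of the 7 were above 0 and 2 below it, from 0.93 for TCF12 to -0.48 for TCF3. TWIST2, the paralog of TWIST1, was the other below 0, at -0.22, and was bright and even, at 1801, 1543, 1784 and 1777. Epithelial transcription and splicing regulators had 8 of 18 expressed. GRHL1, a grainyhead factor of epithelia, was the 1 past 2-fold, at least 2.48-fold higher with the mimic from a control signal of 59.8, under the floor. With the EpCAM-positive control its ratio was 0.49, under 2-fold. With the antagomir and between the controls 0 of the 8 were past 2-fold.

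Of 23 epithelial genes that ZEB or Snail proteins repress, 16 were expressed, of which 3 were past 2-fold above the control in mimic-treated cells and 0 below it (median 0.06), where 4.37% and 3.05% of all expressed genes were. The median was 0.18 with the EpCAM-positive control and 0.18 after subtracting the medians by gene span. They were EPCAM, the desmosomal plaque protein DSP and the polarity scaffold PATJ. EPCAM had 1106 and 3838, DSP 1662 and 4230, and PATJ 87.9 and 194 with the NC and miR-429 mimics. EPCAM and PATJ were near their NC mimic signals in the EpCAM-positive control (1235 and 93.8), while DSP was higher there, at 3065, which left it under 2-fold with a mimic ratio of 0.47. In the antagomir and control comparisons 0 of the 16 were past 2-fold.

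Cadherins other than CDH1 and CDH2 were sparse, with 5 of 17 expressed. With the antagomir, CDH15 was at least 2.08-fold lower, from 135 to 24.6, and CDH26 at least 2.60-fold lower, from 168 to 64.7. CDH16, a kidney cadherin, was at least 2.17-fold lower in the EpCAM-positive control, at 50.2 against 140. With the mimic 0 of the 5 were past 2-fold. Catenins and adherens junction partners had 17 of 21 expressed and a median of 0.38 with the mimic, where 2 were higher and 1 lower past 2-fold. That median was 0.16 after subtracting the medians by gene span and 0.17 with the EpCAM-positive control. NECTIN1, a junctional immunoglobulin receptor, was at least 2.63-fold higher there, at 171 from 60.0, and AFDN, the actin linker of nectins, had 287 and 117, while NECTIN3 was lower, at 82.7 and 174. NECTIN1 was at 236 in the EpCAM-positive control, at least 3.65-fold above the NC mimic array, and against that control its mimic ratio was -0.47. AFDN was higher with the antagomir too, at 208 and 90.0.

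The intermediate filament relatives and partners of vimentin had 13 of 18 expressed and 0 past 2-fold in any of the 3 comparisons. Mesenchymal genes had 22 of 31 expressed, and their median was 0.04 with the mimic, -0.12 with the antagomir and 0.03 between the controls. Past 2-fold were 1 higher and 0 lower with the mimic, 1 and 0 with the antagomir, and 1 and 2 between the controls, where the shares of all expressed genes were 4.37% and 3.05%, 2.8% and 2.62%, and 2.86% and 3.82%. The mimic median was 0.16 with the EpCAM-positive control and 0.21 with a floor at the 75th percentile of signal. FBN1, a microfibril protein, was 2.87-fold higher with the mimic, at 1047 against 365, and 2.51-fold higher in the EpCAM-positive control, at 917, against which its mimic ratio was 0.19. Its log2 ratios by this brightest probe set, 1.52 and 1.33, became 2.82 and 2.23 as the median over its 2 passing probe sets. MMP2, a gelatinase, was at least 2.25-fold higher with the antagomir, at 146 against 58.5, but its NC mimic signal was 143, so the EpCAM-positive control was the low array. ITGA5, a fibronectin receptor subunit, was 2.18-fold lower in the EpCAM-positive control, at 859 against 1874. S100A4, a calcium-binding protein of motile cells, had signals of 76192, 56061, 68479 and 68457 in the order NC mimic, miR-429 mimic, NC antagomir and antagomir-429. Its log2 ratio with the mimic was -0.44, under 2-fold but larger than the scatter of 0.32 at that signal, and 0.00 with the antagomir.

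**Figure D3:**
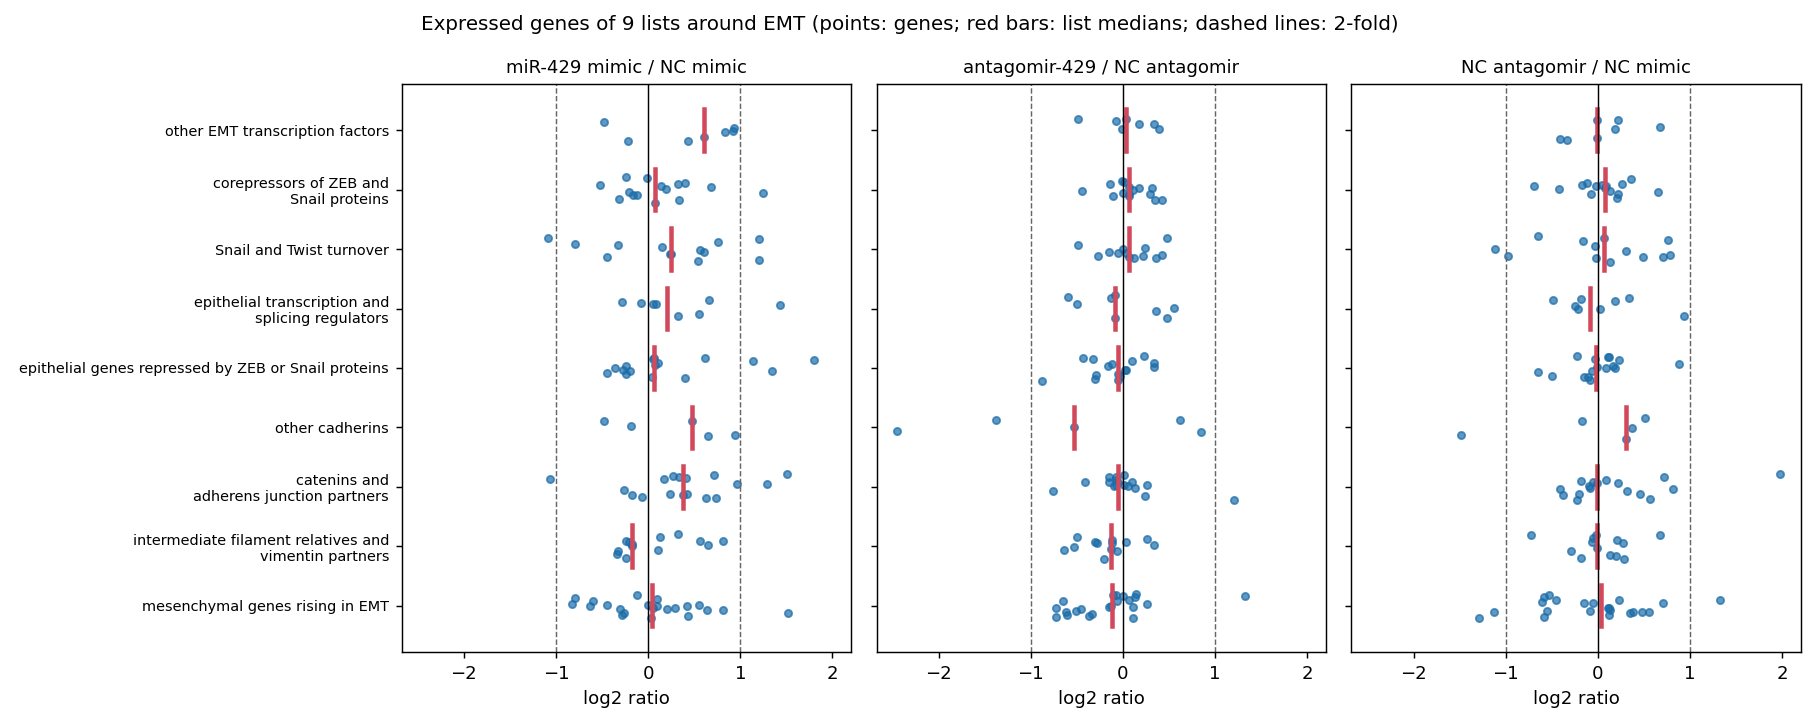
Log2 ratio (x axis) of each expressed gene (points) in 9 lists around EMT (rows), 1 panel per comparison; red bars are list medians and dashed lines mark 2-fold. The largest point with the mimic is EPCAM (1.80), and the lowest with the antagomir is CDH15 (-2.45).

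Genes whose pattern over the 4 arrays lay nearest were found for members that were at or above the floor on all 4 arrays and ranged over at least 1 log2 unit, which left SNAI1 and CDH2. The measure was the Euclidean distance between log2 signals, each minus the gene's own mean, among 10925 genes above the floor on all arrays. For SNAI1 the nearest were PRDM1 (distance 0.11), CDKAL1 (0.14) and BTRC (0.15). For CDH2 they were AAK1 (0.06), DIP2B (0.08) and PAXIP1 (0.08). With 4 arrays many genes share a shape: 60 genes lay within a distance of 0.3 of SNAI1 and 198 within that of CDH2. All 6 named genes were lowest on the NC mimic array and highest on the miR-429 mimic array, as their member was. This follows from how they were chosen and is no separate observation.

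**Figure D4:**
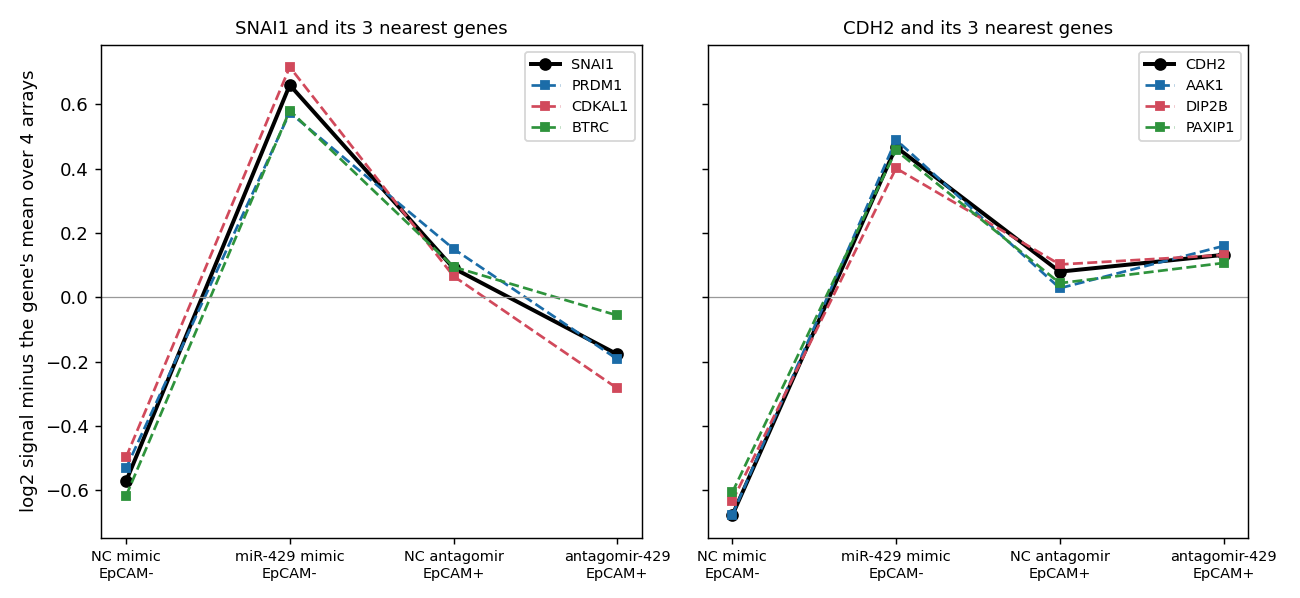
Log2 signal minus the gene's own mean over 4 arrays (y axis) on each array (x axis) for SNAI1 (left) and CDH2 (right, brighter probe set), in black, and the 3 nearest genes of each, dashed. In both panels the NC mimic array is the low point and the miR-429 mimic array the high point.

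The promoters of the members are relevant because the repressors among them act through E-boxes. RefSeq windows on GRCh38.p14, 250 bases before to 50 after a start, were held for 4 members: ZEB1 (7 starts), CDH2 (2 starts), ZEB2 and VIM. The E-box CACCTG, on either strand (CAGGTG), occurred in 2 of the 11 windows, both of ZEB1, and in 20.6% of all 35116 windows of 300 bases. The ZEB1 window with the most matches, 3, and the first CDH2 window, from a member past 2-fold with the mimic whose windows were held, are printed 5′ to 3′ on the gene's strand with the E-box in capitals. The ZEB1 window is chr10:31318966-31319265 on the plus strand and that of CDH2 chr18:28177081-28177380 on the minus strand.
ZEB1: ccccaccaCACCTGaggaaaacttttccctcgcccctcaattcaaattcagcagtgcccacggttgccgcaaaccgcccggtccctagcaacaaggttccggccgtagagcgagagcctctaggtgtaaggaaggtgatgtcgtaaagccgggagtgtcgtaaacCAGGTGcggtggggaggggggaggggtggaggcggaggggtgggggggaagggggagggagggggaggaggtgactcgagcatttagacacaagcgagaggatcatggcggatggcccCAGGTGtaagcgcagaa
CDH2: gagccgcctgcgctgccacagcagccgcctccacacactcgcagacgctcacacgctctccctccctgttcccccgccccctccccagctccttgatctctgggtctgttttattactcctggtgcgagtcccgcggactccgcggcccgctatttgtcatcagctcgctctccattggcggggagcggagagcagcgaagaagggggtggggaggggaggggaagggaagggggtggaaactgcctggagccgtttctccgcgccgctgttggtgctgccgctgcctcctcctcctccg
The ZEB1 matches begin at -242, -85 and 34 from the start, and these 300 bases of CDH2 hold no match. The window of ZEB1 is 61.7% G and C and that of CDH2 67.0%, against a median of 58.7% over all windows. A match is a run of letters and not a bound site.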

How the data were processed

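Total RNA from 4 samples was hybridised to Affymetrix Human U133 Plus 2.0 arrays, 1 per group, with biotin-labelled cRNA per the labels' protocols. The deposited values are log2 signals made by the authors with MAS5, per the submitters' processing notes; the version is not given in the sources used here. On the linear scale each array had the same trimmed mean of 500.1, so no further scaling was applied. The 62 control probe sets were left out. Probe sets were named from the platform annotation where it gave 1 symbol (41097 did, 1801 had several, 11777 were unnamed), and 41043 matched RefSeq GRCh38.p14 by Entrez identifier. That table was used for names and spans only. A gene was its brightest probe set by mean log2 signal. The floor was the median over all non-control values, and a fold from under it is "at least". Scatter, or robust SD, is the scaled median absolute deviation of log2 ratios in 20 bins of signal. With 1 array per group no test could be run, and precision is limited by the number of arrays. The members and lists were chosen with earlier results of these data known. Genes named from the lists were up to 3 per direction and comparison, the largest past 2-fold among expressed genes. CTBP1, CTBP2, TWIST2, TCF12, TCF3, S100A4 and the cell type markers named other than EPCAM are given as examples chosen after their values were seen. Scripts used Python 3.11.15, numpy 2.4.6 and pandas 2.3.3, and were checked on simulated data. The alternatives were 8 planned and 1 added.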

Additional observations from a re-analysis of the deposited data

How the results depend on the processing

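Median centring and quantile normalization moved 0 of the member and list counts by more than 1.5 times. The count of member genes at least 2-fold higher with the mimic, 2, became 1 with the floor at the 75th percentile (a signal of 271), 1 with the span correction and 0 with the control array of the other fraction. Of all genes, 144 of 8078, 476 of 12386 and 548 of 12395 were higher in these settings. Between the controls the count of member genes higher was 0 and became 1 with no filter (CDH1), where 2264 of all 19775 genes were higher. It was also 1 with the median over probe sets (CDH2, 1.13), where 344 of 12395 were. With the antagomir, member genes lower were 0 and became 1 with no filter (TWIST1), where 2412 of all 19775 genes were lower. Over the listed genes, the mimic gave 10 higher and 2 lower, where all genes gave 542 and 378 of 12395 at the floor used. These became 4 and 1 with the higher floor, where all genes gave 144 and 36 of 8078. With no filter they were 21 and 11, where all genes gave 2539 and 2248 of 19775. The lower count became 1 with an offset of 16 signal units, against 280 of 12395. It was also 1 with the other control, against 311 of 12395. The antagomir gave 2 higher and 2 lower, where all genes gave 347 and 325 of 12395. These became 0 and 0 with the higher floor, where all genes gave 24 and 14 of 8078. With no filter they were 14 and 14, against 2226 and 2412 of 19775. With the other control they were 4 and 8, against 455 and 498 of 12395. The lower count became 5 with the floor at the median of probe set means, chosen after seeing the data, against 465 of 13180. The controls gave 2 higher and 4 lower, where all genes gave 354 and 473 of 12395. These became 1 and 2 with the higher floor, against 58 and 58 of 8078. With no filter they were 9 and 16, against 2264 and 2539 of 19775. Fewer or more genes enter as the floor moves; for the other shifts the cause was not tested. Against the other control, COPS2 with the mimic turned from -1.09 to 0.032 and NECTIN1 from 1.51 to -0.47. VIM with the mimic, -0.07, was 0.20 under quantile normalization and 0.05 with the span correction, and ZEB1, 0.18, was -0.03 with the span correction and -0.44 with the other control. No paired analysis was possible because each group has 1 array. Dim signal limits what can be said of ZEB2, TWIST1 and CDH1.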
